A study of Mus musculus with 42 samples.

Results

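Cyp2c29, Cyp2c37, Cyp2c38, Cyp2c39, Cyp2c50, Cyp2c54 and Cyp2c55 are 7 cytochrome P450 genes that were examined as a set named for induction by enzalutamide. They were taken by symbol from the raw count tables of 2 treatment arms, where they are 7 of 55573 gene IDs and 7 of the 15 protein-coding Cyp2c genes of the annotation. The name held for some of them: Cyp2c29 and Cyp2c55 were higher with enzalutamide in every comparison that added it, Cyp2c50 likewise but with acute calls that were lost when single mice were left out, and Cyp2c54 in the chronic arm. By edgeR, Cyp2c37, Cyp2c38 and Cyp2c39 passed the test in none of the 3 comparisons where enzalutamide was the only agent that differed, and rose with chronic corticosterone. Their changes in those comparisons were all above 0. With acute enzalutamide alone their log2 fold changes were 0.54, 0.36 and 0.82 in that order, against 0.60 for Cyp2c50. Added to chronic corticosterone they were 0.60, 0.32 and 0.13, against 1.60. There Cyp2c37 passed by limma-voom, and by edgeR without mouse 18. The 42 livers came from male C57B6/J mice, and mRNA was sequenced from stranded libraries of total RNA. In the acute arm, there were 6 mice on each of vehicle, the rodent stress hormone corticosterone (CORT), the antiandrogen enzalutamide (ENZA), and the pair of agents (CORT+ENZA). In the chronic arm, 6 mice each received vehicle, CORT or CORT+ENZA, and none of the 42 samples is from chronic enzalutamide alone. Chronic enzalutamide can therefore be read only in mice that also received CORT. Within an arm the groups differed by agent in the labels, and the arms differed by duration and RNA extraction kit. No allele is named, and dose, route and length of treatment have no entry in the labels.

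Cytochrome P450 enzymes of the Cyp2c family sit in the endoplasmic reticulum of hepatocytes, where they oxidize drugs, steroids and polyunsaturated fatty acids. Several mouse members turn arachidonic acid into epoxides or hydroxy acids. The nuclear receptors CAR (encoded by Nr1i3) and PXR (Nr1i2) sense drugs and other foreign compounds and raise transcription of Cyp2b, Cyp2c and Cyp3a genes, and enzalutamide is known in people as an inducer of drug-metabolizing P450 enzymes.

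All 7 genes lie in a cluster on chromosome 19 (GRCm38, GENCODE M21). In order along the chromosome these are Cyp2c55 (ENSMUSG00000025002, 39007019 to 39042693, plus strand), Cyp2c29 (ENSMUSG00000003053, 39269405 to 39330713, plus), Cyp2c38 (ENSMUSG00000032808, 39389556 to 39463075, minus), Cyp2c39 (ENSMUSG00000025003, 39510862 to 39568529, plus), Cyp2c37 (ENSMUSG00000042248, 39992424 to 40012243, plus), Cyp2c54 (ENSMUSG00000067225, 40037940 to 40073827, minus) and Cyp2c50 (ENSMUSG00000054827, 40089688 to 40113950, plus). Each encodes 490 residues. By coding sequence they form 3 branches: Cyp2c37, Cyp2c50 and Cyp2c54 were 95.1 to 96.1% identical, Cyp2c38 and Cyp2c39 were 94.2% identical with Cyp2c29 at 89.1 and 89.5% to them, and Cyp2c55 was 75.7 to 77.6% identical to the others. Such likeness limits how reads are assigned. Of the 50-base stretches of each transcript, 30.1% in Cyp2c37, 30.7% in Cyp2c50 and 25.7% in Cyp2c54 also occurred in another gene, against 12% in Cyp2c39, 7.45% in Cyp2c38, 2.08% in Cyp2c29 and 0.514% in Cyp2c55. Values of Cyp2c37, Cyp2c50 and Cyp2c54 are therefore uncertain by the sequence they share, and for Cyp2c39 this holds at 50 bases only. Cyp2c29 overlaps the pseudogene Cyp2c53-ps on the same strand, which stood at 0.0486 to 0.206 CPM in acute vehicle, 0.685 to 2.95 in acute ENZA and 8.11 to 15.0 in chronic CORT+ENZA. Over 100 bases, the length of 1 read here, the shared part was 9.4% in Cyp2c50, 7.59% in Cyp2c54, 4.7% in Cyp2c37 and 0 in the other members.

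The 250 bases before the RefSeq start (GRCm38.p6) are shown for 4 members, because Cyp2c29 and Cyp2c55 changed most with enzalutamide, and Cyp2c37 and Cyp2c50 have the most similar upstream sequence (84.3% identical) and different calls with chronic CORT. They run 5′ to 3′ on the gene's strand, and capitals mark matches to the motifs given after them. The windows are chr19:39286835-39287084 for Cyp2c29, chr19:39992174-39992423 for Cyp2c37, chr19:40089429-40089678 for Cyp2c50 and chr19:39006769-39007018 for Cyp2c55, all on the plus strand.
Cyp2c29: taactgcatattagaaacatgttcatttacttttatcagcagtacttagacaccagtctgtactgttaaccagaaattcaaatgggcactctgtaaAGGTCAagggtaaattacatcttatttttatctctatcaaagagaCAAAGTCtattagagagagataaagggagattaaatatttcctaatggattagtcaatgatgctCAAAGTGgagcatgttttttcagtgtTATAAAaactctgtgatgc
Cyp2c37: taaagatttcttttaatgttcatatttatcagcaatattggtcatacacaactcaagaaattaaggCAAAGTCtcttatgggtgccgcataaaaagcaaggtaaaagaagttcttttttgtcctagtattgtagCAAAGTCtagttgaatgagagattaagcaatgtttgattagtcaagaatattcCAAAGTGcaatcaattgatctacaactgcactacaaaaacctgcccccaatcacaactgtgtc
Cyp2c50: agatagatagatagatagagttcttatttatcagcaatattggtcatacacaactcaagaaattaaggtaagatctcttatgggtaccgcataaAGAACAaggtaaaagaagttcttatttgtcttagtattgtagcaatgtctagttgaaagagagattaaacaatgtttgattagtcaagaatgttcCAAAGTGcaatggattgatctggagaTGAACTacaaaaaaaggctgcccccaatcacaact
Cyp2c55: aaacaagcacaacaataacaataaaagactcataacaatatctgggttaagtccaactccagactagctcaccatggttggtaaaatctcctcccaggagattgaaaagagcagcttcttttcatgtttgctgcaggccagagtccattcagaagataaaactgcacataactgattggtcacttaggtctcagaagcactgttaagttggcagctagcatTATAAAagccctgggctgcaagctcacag
Of the 7 members, 6 had an entry, and Cyp2c54 is named only. The RefSeq start of Cyp2c29 lies 17680 bases inside the GENCODE gene.

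Motifs were searched on both strands of these 6 windows and of all 32851 windows of this length. HNF4 is a hepatocyte receptor for which CAAAGTC and CAAAGTG stand as core letters here. CAAAGTC occurred upstream of Cyp2c29, Cyp2c37 and Cyp2c39 (3 of 6, against 3.84% of all windows), and CAAAGTG upstream of Cyp2c29, Cyp2c37 and Cyp2c50 (3 of 6, against 3.6%). The nuclear receptor half-site AGGTCA was found in Cyp2c29, at 154 bases before the start (14% of all windows), and AGTTCA in Cyp2c39 and Cyp2c50 (11.8%), in Cyp2c50 on the other strand. The steroid receptor half-site AGAACA was found in Cyp2c38, Cyp2c39 and Cyp2c50 (16.1%), and TATAAA in Cyp2c29, Cyp2c38 and Cyp2c55 (12.4%). None of the 6 windows held a pair of these half-sites as a direct repeat spaced by 3 or 4 bases or an everted repeat spaced by 6, or the full steroid receptor site (the half-site AGAACA, 3 bases, then its reverse complement), each present in at most 0.0152% of all windows. The half-sites overlap these longer motifs in letters. No window held more than a single AGGTCA or AGTTCA, or more than a single AGAACA, so none could hold such a pair. Sequence further upstream was not searched, so this absence says nothing about sites there. The 6 windows are related in sequence. Upstream identity was 84.3% for Cyp2c37 with Cyp2c50 and 68.1 to 71% among Cyp2c29, Cyp2c38 and Cyp2c39. Matches in several of them are therefore not separate finds to weigh against the share of all windows. A match is a description of the letters only.

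Gene counts were 18674151 to 20464521 per acute library and 15381724 to 19581723 per chronic library. Pairs aligned to several places, which are not counted for any gene, made up 9.34 to 12.8% of acute and 18.6 to 22.7% of chronic pairs. RNA was extracted with a different kit in each arm, so kit and duration cannot be told apart. All 7 hepatocyte markers were detected, at a summed 88620 to 146500 CPM (counts per megaread of the library, scaled by TMM) in acute mice, 109000 to 133900 in chronic vehicle, 98490 to 133700 in chronic CORT and 66940 to 86110 in chronic CORT+ENZA. Of markers of other tissues, Cdx2 of the intestine was at 0 in all mice and Prss2 and Amy2a5 of the pancreas at 0 in all acute mice. The 4 intestinal markers still summed to 22.9 to 74.4 CPM in acute and 60.6 to 162 in chronic mice. The 4 pancreatic markers summed to 4.54 to 12.6 CPM in acute mice and 26.7 to 42.4 in chronic vehicle. They summed to 6.18 to 21.5 CPM in chronic CORT and 5.79 to 9.735 in chronic CORT+ENZA. The 4 adipocyte markers summed to 92.2 CPM in chronic vehicle mouse 15 and 36.4 in chronic CORT+ENZA mouse 5, against 0 to 5.03 in the other mice. No call of a member in the chronic arm changed when either of these mice was left out. In bulk liver, fewer cells of a type and less RNA per cell cannot be told apart. The labels number the libraries but do not say in words that each is a separate animal, so the p-values measure the spread between these samples.

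Per kilobase of transcript, Cyp2c29 was the most abundant member in every group. In acute vehicle it stood at 687 ± 136 CPM per kb (mean ± SD, n = 6), followed by Cyp2c50 at 381 ± 73.3, Cyp2c54 at 147 ± 32.6, Cyp2c37 at 91.3 ± 22.3, Cyp2c38 at 20.2 ± 2.55, Cyp2c55 at 5.18 ± 1.82 and Cyp2c39 at 1.34 ± 0.245. The order in chronic vehicle was the same, from 489 ± 51.7 CPM per kb for Cyp2c29 to 0.637 ± 0.155 for Cyp2c39. In acute vehicle each neighbour in this order lay apart by more than the sum of the SDs, with Cyp2c54 and Cyp2c37 only just so. In chronic CORT Cyp2c37 (138 ± 29.1) and Cyp2c54 (122 ± 43.3) did not differ beyond their spread. In raw counts, Cyp2c29 had 11909 to 113229 pairs per library, Cyp2c39 13 to 165 and Cyp2c55 13 to 1595.

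**Figure D1:**
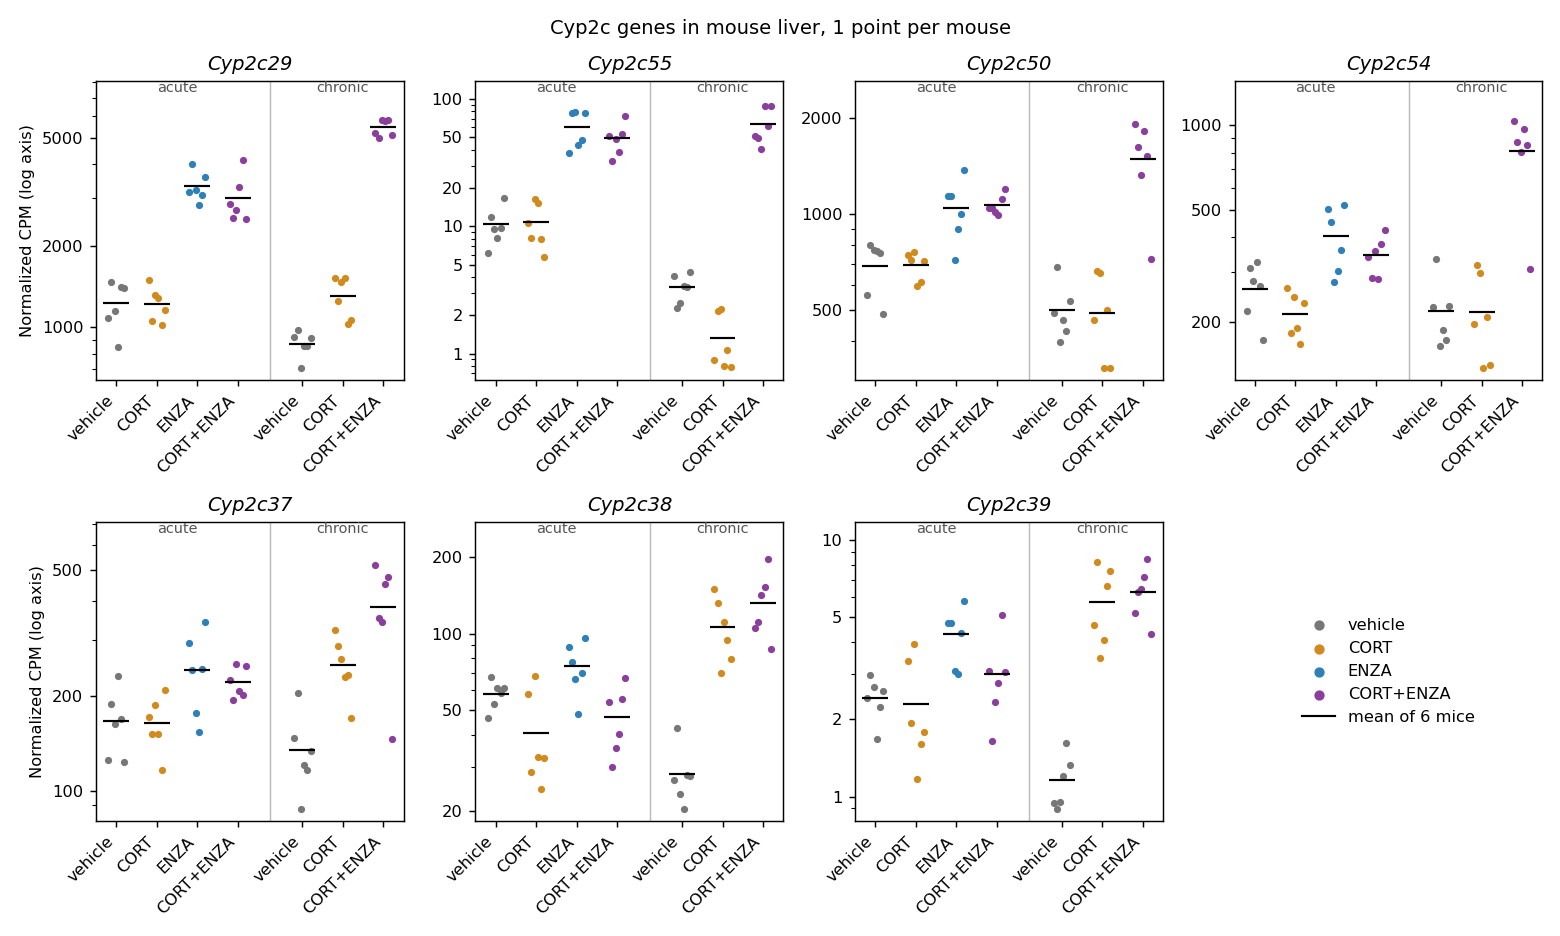
Normalized CPM (log axis) of each gene in each of the 42 mice, by group, with a line at the mean of 6 mice; the acute arm is on the left of each panel and the chronic arm on the right. Cyp2c29 and Cyp2c55 stand apart in all groups given ENZA, whereas Cyp2c38 and Cyp2c39 stand apart from vehicle in both chronic groups given CORT.

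The first comparisons asked what acute ENZA does, alone and on top of CORT. Cyp2c29, an arachidonic acid epoxygenase, had a lowest, median and highest level of 843, 1274 and 1466 CPM in vehicle and of 2821, 3190 and 4014 CPM in ENZA. Every ENZA mouse lay above every vehicle mouse, and the mean was 2.7-fold higher (log2 fold change 1.44 ± 0.14, SE, adjusted p = 9.8e-07). With CORT on board the same gene went from 1022, 1220 and 1500 CPM in CORT to 2510, 2782 and 4122 in CORT+ENZA, again without overlap (2.46-fold, log2 1.30 ± 0.14, adjusted p = 1.4e-05). Of 13733 genes tested, Cyp2c29 had the smallest p for ENZA added to CORT, and the second smallest for ENZA alone.

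Cyp2c55, which hydroxylates arachidonic acid and is also known from the colon, was a low-abundance mRNA that rose furthest. It stood at 6.13, 9.6 and 16.7 CPM in vehicle and 37.5, 62.2 and 78.5 in ENZA (lowest, median, highest), with no overlap. The change was 5.84-fold (log2 2.55 ± 0.28, adjusted p = 1.2e-05). In CORT it stood at 5.75, 9.41 and 16.4 CPM and in CORT+ENZA at 32.9, 49.9 and 73.1, 4.61-fold higher and also without overlap (log2 2.21 ± 0.28, adjusted p = 1.6e-04).

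Cyp2c50, Cyp2c54 and Cyp2c37, the branch of near-identical epoxygenases and hydroxylases, moved less. Cyp2c50 stood at 487, 763 and 801 CPM in vehicle and at 718, 1072 and 1377 in ENZA, with 5 of 6 ENZA mice above all vehicle mice (1.52-fold, log2 0.60 ± 0.13, adjusted p = 0.0211). Without vehicle mouse L1A, ENZA mouse L11A or ENZA mouse L35A the call was lost (adjusted p = 0.0512 to 0.0613), and likewise with only the 2 groups in the fit (adjusted p = 0.112). In CORT+ENZA it stood at 991, 1043 and 1200 CPM against 595, 717 and 763 in CORT, without overlap (1.54-fold, log2 0.63 ± 0.13, adjusted p = 0.0362). That second call was lost when any single one of the 12 mice was left out (adjusted p = 0.0511 to 0.149, log2 0.58 to 0.66), and likewise with a term for sets of mice with consecutive numbers (adjusted p = 0.0789). Cyp2c54 had similar fold changes and did not pass the test: 172, 274 and 327 CPM in vehicle against 278, 407 and 521 in ENZA (log2 0.62 ± 0.17, adjusted p = 0.0586), and 167, 212 and 264 in CORT against 285, 349 and 425 in CORT+ENZA (log2 0.69 ± 0.17, adjusted p = 0.124). For CORT+ENZA its mice lay wholly above those on CORT, and DESeq2 called it (adjusted p = 0.0182). Without ENZA mouse L17A or L23A its response to ENZA alone passed (adjusted p = 0.0297 and 0.0399), as it did by DESeq2 (0.0139), by limma-voom (0.0279) and when mice L19A (vehicle) and L36A (CORT+ENZA) were left out (0.0479). Cyp2c37 was at 123, 166 and 231 CPM in vehicle and 154, 242 and 344 in ENZA, with overlapping groups (log2 0.54 ± 0.17, adjusted p = 0.131), and its log2 fold change on top of CORT was 0.43 ± 0.17 (adjusted p = 0.837).

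Cyp2c38, an epoxygenase, and Cyp2c39, known as a retinoic acid hydroxylase, did not pass in either comparison. Cyp2c38 stood at 46.5, 59.6 and 67.6 CPM in vehicle and 48.3, 73.8 and 96 in ENZA (log2 0.36 ± 0.23, 95% interval -0.08 to 0.80, adjusted p = 0.473). Cyp2c39 stood at 1.68, 2.49 and 2.98 CPM in vehicle and 3.02, 4.55 and 5.8 in ENZA. The groups of Cyp2c39 did not overlap, yet the change missed the threshold (log2 0.82 ± 0.26, adjusted p = 0.12). On top of CORT the log2 fold changes were 0.21 ± 0.23 for Cyp2c38 and 0.38 ± 0.26 for Cyp2c39 (adjusted p = 0.999 for both), with 95% intervals of -0.24 to 0.65 and -0.14 to 0.90.

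In counts, acute ENZA alone raised 3 of the 7 genes and lowered 0, where 0.845% of all 13733 genes rose and 0.466% fell (edgeR, adjusted p under 0.05). The median log2 fold change was 0.62 over the 7 genes and -0.0019 over all genes. ENZA on top of CORT raised 3 of 7 and lowered 0, against 0.167% and 0.00728% of all genes, with medians of 0.63 and -0.0025. The 3 genes were Cyp2c29, Cyp2c50 and Cyp2c55 both times. By edgeR 6 of the 7 had an unadjusted p under 0.05 with ENZA alone, and 5 with ENZA on CORT. Over all 13733 genes 2002 and 696 did. The genes were chosen with earlier results of these samples known, so these counts are no independent evidence of the direction.

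Acute CORT called none of the 7 genes in either direction, where it raised 0.947% and lowered 0.67% of all genes. By edgeR 1 of the 7 had an unadjusted p under 0.05, as did 1934 of all 13733 genes, and DESeq2 and limma-voom also called 0. The one was Cyp2c38, at 24.5, 32.6 and 68.2 CPM in CORT against 46.5, 59.6 and 67.6 in vehicle, with 4 of 6 CORT mice below all vehicle mice (log2 -0.51 ± 0.23, adjusted p = 0.306). The 95% intervals of the log2 fold change were -0.27 to 0.27 for Cyp2c29, -0.25 to 0.26 for Cyp2c50 and -0.49 to 0.60 for Cyp2c55. CORT on top of ENZA likewise called 0 of 7, against 1.08% of all genes higher and 0.728% lower. Cyp2c38 had the largest difference there, with 47.0 ± 14.0 CPM in CORT+ENZA and 74.4 ± 17.0 in ENZA (log2 -0.66 ± 0.23, adjusted p = 0.144), and limma-voom called it (log2 -0.86, adjusted p = 0.0159), while DESeq2 called 0. By edgeR it was the 1 of 7 with an unadjusted p under 0.05, which 2050 of all 13733 genes had.

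Whether the ENZA effect differed with CORT was tested as an interaction over the 24 acute mice. edgeR called 0 of 13733 genes, which is 0% higher and 0% lower, with 501 at an unadjusted p under 0.05 and none of them among the 7, and DESeq2 and limma-voom also called 0. The log2 difference was -0.14 ± 0.19 for Cyp2c29 (95% interval -0.52 to 0.24) and -0.34 ± 0.38 for Cyp2c55 (-1.08 to 0.40).

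Chronic CORT changed the members along other lines, with rises in Cyp2c38, Cyp2c39, Cyp2c37 and Cyp2c29 and a fall in Cyp2c55. Cyp2c38 stood at 20.5, 27.1 and 42.7 CPM in chronic vehicle and at 70, 103 and 150 in chronic CORT, every CORT mouse above every vehicle mouse (3.79-fold, log2 1.92 ± 0.23, adjusted p = 1.7e-05). Cyp2c39 went from 0.897, 1.08 and 1.62 CPM to 3.47, 5.64 and 8.21, with no overlap (4.94-fold, log2 2.30 ± 0.24, adjusted p = 3.4e-06). These 2 genes, the closest pair of their branch, had the largest rises of the 7.

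Cyp2c37 stood at 87.6, 127 and 204 CPM in vehicle and 171, 247 and 324 in CORT, with 5 of 6 CORT mice above all vehicle mice (1.86-fold, log2 0.90 ± 0.25, adjusted p = 0.0173). Its near-copies were not called: Cyp2c50 had 399, 478 and 684 CPM in vehicle and 329, 483 and 663 in CORT (log2 -0.03 ± 0.22, 95% interval -0.45 to 0.39, adjusted p = 0.942), and Cyp2c54 a log2 fold change of -0.02 ± 0.27 (-0.54 to 0.51, adjusted p = 0.976). Counted as 1 feature, the 3 genes did not pass (log2 0.16 ± 0.22, adjusted p = 0.657). The same feature passed for acute ENZA (log2 0.60 ± 0.14, adjusted p = 0.0293) and for ENZA on chronic CORT (1.48 ± 0.23, adjusted p = 2.8e-04), and did not pass for ENZA on acute CORT (0.61 ± 0.14, adjusted p = 0.0831). Cyp2c29 went from 708, 883 and 977 CPM to 1032, 1356 and 1526, without overlap (1.5-fold, log2 0.59 ± 0.11, adjusted p = 0.00105).

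Cyp2c55 moved the other way, from 2.28, 3.36 and 4.41 CPM in vehicle to 0.779, 0.975 and 2.22 in CORT. All 6 CORT mice lay below all vehicle mice (log2 fold change -1.34 ± 0.31, adjusted p = 0.00581), on 13 to 41 counted pairs per CORT library. In counts, chronic CORT raised 4 of 7 genes and lowered 1, where it raised 9.04% and lowered 9.29% of all 13099 genes tested. The median log2 fold change was 0.59 over the 7 genes and -0.01 over all genes. Markers of other cell types also differed in this comparison. All 4 B cell markers tested fell (median log2 -3.23), from a summed 2.97 to 8.65 CPM in vehicle to 0.0524 to 1.38 in CORT. Of the 9 Kupffer cell markers 2 fell (median -0.82, summed 126 to 404 CPM in vehicle and 108 to 192 in CORT), and of 6 stellate cell markers 1 fell (median -0.56). Pericentral hepatocyte markers had 1 of 8 higher and 2 lower, and periportal ones 2 of 8 higher and 0 lower. Their part in the changes of the 7 genes was not tested.

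Adding ENZA to chronic CORT raised Cyp2c29, Cyp2c55, Cyp2c50 and Cyp2c54. Cyp2c29 rose from 1032, 1356 and 1526 CPM to 4988, 5506 and 5825, wholly above CORT (4.17-fold, log2 2.06 ± 0.11, adjusted p = 7.5e-10). Cyp2c55 rose from 0.779, 0.975 and 2.22 CPM to 40.7, 56.7 and 87.5, also wholly above (47.7-fold, log2 5.58 ± 0.29, adjusted p = 7.5e-10). They had the smallest and the second smallest p of 13099 genes.

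Cyp2c50 went from 329, 483 and 663 CPM to 726, 1571 and 1913 (3.03-fold, log2 1.60 ± 0.22, adjusted p = 9.3e-05), and Cyp2c54 from 137, 203 and 319 CPM to 308, 862 and 1038 (3.72-fold, log2 1.90 ± 0.28, adjusted p = 1.9e-04). The groups of Cyp2c50 did not overlap, and 5 of 6 CORT+ENZA mice were above all CORT mice for Cyp2c54. Cyp2c37 stood at 146, 402 and 522 CPM against 171, 247 and 324 and did not pass (log2 0.60 ± 0.25, adjusted p = 0.12). With mouse 18 of the CORT+ENZA group left out it did (log2 0.76, adjusted p = 0.0114), as it did by limma-voom with all mice (log2 0.76, adjusted p = 0.00821). Cyp2c38 (log2 0.32 ± 0.22, 95% interval -0.10 to 0.74, adjusted p = 0.372) and Cyp2c39 (log2 0.13 ± 0.21, -0.28 to 0.54, adjusted p = 0.747) were not called. ENZA thus raised 4 of 7 genes and lowered 0, where it raised 6.99% and lowered 4.86% of all genes, with medians of 1.60 and -0.0031.

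**Figure D2:**
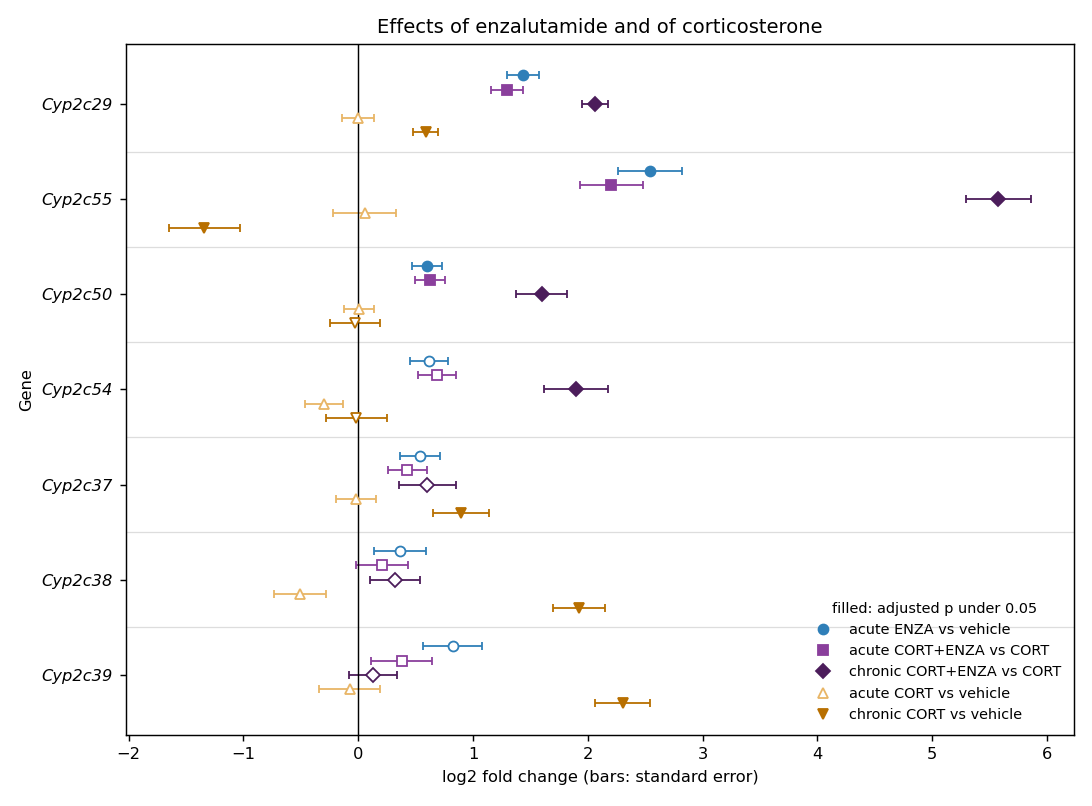
Log2 fold change (horizontal axis, bars are standard errors, n = 6 mice per group) of each gene in 5 comparisons; filled symbols have an adjusted p under 0.05. ENZA effects fill for Cyp2c29, Cyp2c55 and Cyp2c50 and, in the chronic arm, Cyp2c54, and the chronic CORT effect fills for Cyp2c29, Cyp2c37, Cyp2c38, Cyp2c39 and, below 0, Cyp2c55.

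Against chronic vehicle, CORT+ENZA left all 7 genes higher, where 10.3% of all genes rose and 8.29% fell. Log2 fold changes were 4.24 ± 0.26 for Cyp2c55, 2.65 ± 0.12 for Cyp2c29, 2.43 ± 0.24 for Cyp2c39, 2.24 ± 0.23 for Cyp2c38, 1.88 ± 0.28 for Cyp2c54 and 1.57 ± 0.22 for Cyp2c50, and Cyp2c37 was 2.83-fold higher, with an adjusted p of at most 3.6e-04. The chronic comparisons share mice, the CORT group between 2 of them and the vehicle and CORT+ENZA groups with this last one, so they are given side by side and not as separate evidence. Set so, Cyp2c38 and Cyp2c39 had log2 1.92 and 2.30 with CORT and 0.32 and 0.13 with added ENZA, and Cyp2c50 and Cyp2c54 had -0.03 and -0.02 with CORT and 1.60 and 1.90 with added ENZA. The summed hepatocyte markers of chronic CORT+ENZA mice lay below those of all other chronic mice, with 3 of 7 markers lower than in CORT (Ttr, Alb and Fgb) and 4 of 7 lower than in vehicle (with Serpina1a, all 4 named after their values were seen). Their part in these rises was not tested.

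Some mice stood apart within their groups. CORT+ENZA mouse 18 had the lowest Cyp2c37 (146 CPM), Cyp2c50 (726), Cyp2c54 (308), Cyp2c38 (87.0) and Cyp2c39 (4.33) of its group, but 5127 CPM of Cyp2c29 and 87.4 of Cyp2c55, among the values of its group mates. Its 8 pericentral markers (genes of hepatocytes around the central vein, such as Glul and Cyp2e1) summed to 3035 CPM, against 7608 to 9827 in the other 5 mice, and its 9 Kupffer cell markers to 698 CPM against 156 to 293. Vehicle mouse 11 had the highest Cyp2c29, Cyp2c37, Cyp2c38, Cyp2c50 and Cyp2c54 of its group (977, 204, 42.7, 684 and 335 CPM) and the lowest Cyp2c39 (0.897) and Cyp2c55 (2.28), with pericentral markers at 16140 CPM against 5499 to 10570 in the other 5. Most of that sum was Cyp2e1 (12930 CPM). In mouse 11 Cyp2e1, Oat, Cyp1a2 and Slc1a2 were the highest of the group, while Glul (1045 CPM), Lgr5, Axin2 and Rhbg lay within the values of the other 5. Over the list, 1 of 8 pericentral markers (Cyp1a2, named after its value was seen) rose and 0 fell when ENZA was added to chronic CORT, and edgeR called 0 of 8 with acute ENZA, with 3 at an unadjusted p under 0.05. Without these 2 mice, the log2 fold change for ENZA on top of chronic CORT was 1.73 for Cyp2c50, 2.06 for Cyp2c54, 0.76 for Cyp2c37 (adjusted p = 0.00359), 2.07 for Cyp2c29 and 5.45 for Cyp2c55, so the rises were as large without them, apart from Cyp2c55 (5.58 with them). All 9 Kupffer cell markers had log2 fold changes above 0 when ENZA was added to chronic CORT (median 0.78), and 2 of them rose, from a summed 108 to 192 CPM in CORT to 156 to 698 in CORT+ENZA. Of 6 stellate cell markers, 5 were above 0 and 1 rose (median 0.52). The part of these markers in the rises of the 7 genes was not tested. In the acute arm, ENZA mouse L29A had Kupffer cell markers at 739 CPM against 191 to 306 in the other 5, and without it no member's call for acute ENZA changed.

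**Figure D3:**
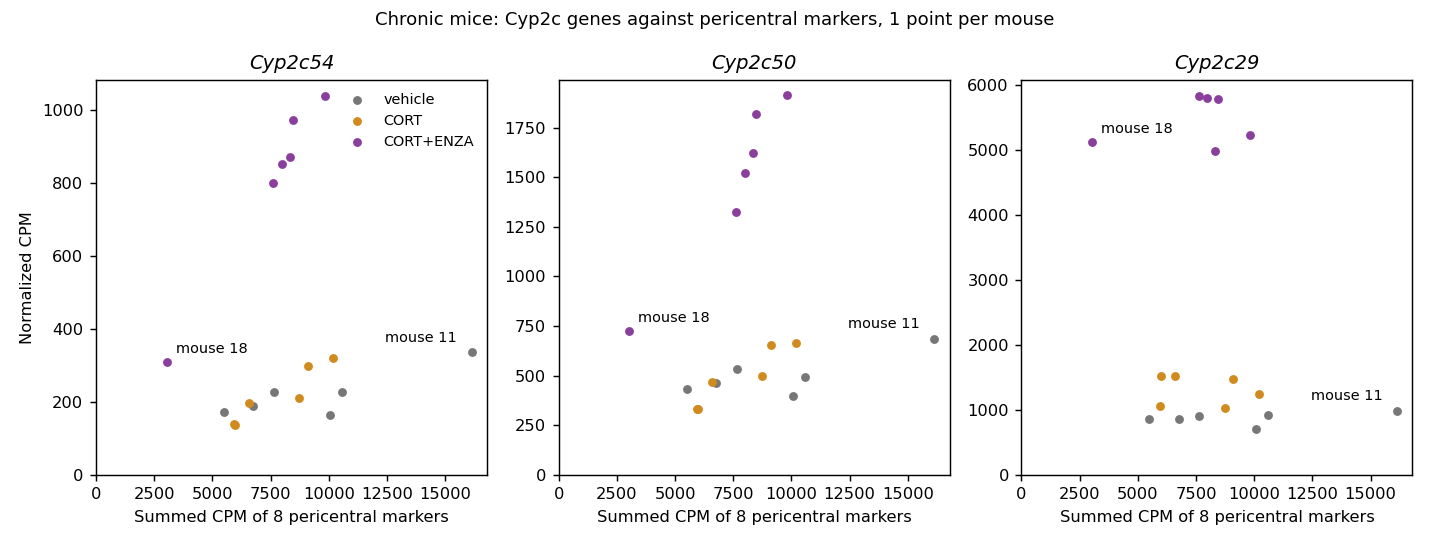
Normalized CPM of Cyp2c54, Cyp2c50 and Cyp2c29 (vertical axes) against the summed CPM of 8 pericentral markers (horizontal axis) in the 18 chronic mice, 1 point per mouse. Mouse 18 is low on both axes for Cyp2c54 (308 CPM) and Cyp2c50 (726 CPM) but not low for Cyp2c29 (5127 CPM), and mouse 11 has the highest marker sum (16140 CPM). Cyp2e1 is the largest part of the sum, with 12930 CPM in mouse 11.

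Effects were compared between the arms as differences of log2 fold changes over all 42 libraries. The added ENZA effect was larger in the chronic arm for Cyp2c55, by 3.34 ± 0.42 (adjusted p = 3.4e-06), and for Cyp2c29, by 0.73 ± 0.18 (adjusted p = 0.0283). Thus 2 of 7 were called higher and 0 lower, against 0.905% and 0.361% of 14138 genes. Cyp2c50 (0.95 ± 0.26, adjusted p = 0.0534) and Cyp2c54 (1.18 ± 0.32, adjusted p = 0.0575) lay just outside the threshold. Both passed without mouse 18, without chronic CORT mouse 2 and without chronic CORT mouse 3, at adjusted p from 0.00501 to 0.0339. The call of Cyp2c29 was lost without any of 7 mice (acute CORT L2A, acute CORT+ENZA L6A, L12A, L18A or L36A, or chronic CORT 26 or 27), at an adjusted p of up to 0.0656.

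The CORT effect was larger in the chronic arm for Cyp2c38 (by 2.46 ± 0.34, adjusted p = 9.3e-06), Cyp2c39 (2.41 ± 0.37, adjusted p = 4.2e-05) and Cyp2c29 (0.62 ± 0.18, adjusted p = 0.0314). That is 3 of 7 called higher and 0 lower, against 3.73% and 2.44% of all genes. Cyp2c37 (0.95 ± 0.31, adjusted p = 0.0624) and Cyp2c55 (-1.36 ± 0.45, adjusted p = 0.0623) were not called. Without chronic vehicle mouse 11 both passed (adjusted p = 0.0204 and 0.0477), which made 5 of 7, and likewise without acute vehicle mouse L31A (0.0486 and 0.0314). Cyp2c37 also passed without chronic CORT mouse 27 (adjusted p = 0.0433), and Cyp2c55 without acute CORT mouse L32A or chronic CORT mouse 2 or 3 (adjusted p = 0.0335 to 0.0409). The call of Cyp2c29 was lost without any of 10 mice, namely acute vehicle L7A, L25A and L31A, acute CORT L8A, L26A and L32A, chronic vehicle 12 and chronic CORT 1, 3 and 25 (adjusted p up to 0.0654). Extraction kit and duration cannot be told apart in these differences.

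Together the 7 genes made up 0.242% of scaled counts in acute vehicle, 0.234% in CORT, 0.514% in ENZA and 0.474% in CORT+ENZA. In the chronic arm they made up 0.176% in vehicle, 0.238% in CORT and 0.834% in CORT+ENZA, with 0.649 to 0.928% in single mice of that group. Of the summed CPM per kb, Cyp2c29 held 51.5 ± 8.07% (SD, n = 6) in acute vehicle and 65.4 ± 4.22% in ENZA, and 50.6 ± 3.38% in chronic vehicle and 66.8 ± 7.15% in chronic CORT+ENZA. Cyp2c50 held 28.6 ± 4.38% in acute vehicle and 20.1 ± 2.52% in acute ENZA, while its own level rose.

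**Figure D4:**
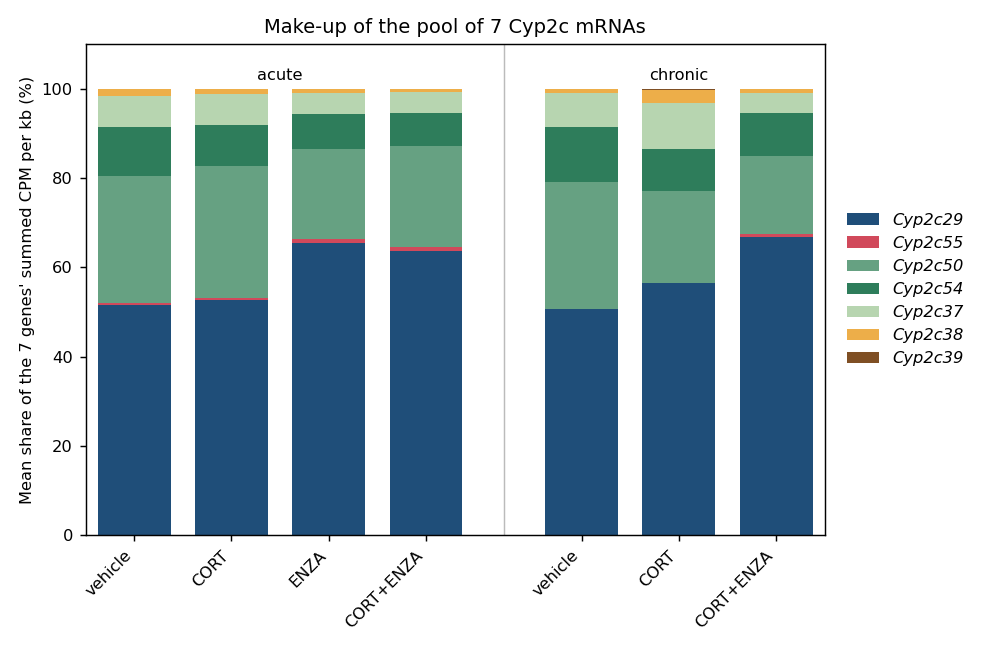
Mean share (%) of each gene in the summed CPM per kb of the 7 genes, by group (n = 6 mice each). Cyp2c29 takes 50.6 to 56.5% in groups without ENZA and 63.6 to 66.8% in groups with it, and Cyp2c38 reaches its largest share, 2.86%, in chronic CORT.

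Ratios within a mouse showed which close relatives parted. Per 100 of Cyp2c50 (CPM per kb), Cyp2c37 stood at 53.1 ± 12.8 in chronic CORT, with 39.9 in the lowest mouse, and in all 36 mice of the other groups at no more than 31.1. It stood at 25.0 ± 3.98 in chronic CORT+ENZA. Cyp2c54 per 100 of Cyp2c50 was at 25.8 to 49.7 in the 6 other groups and at 43.0 to 61.4 in chronic CORT+ENZA (54.2 ± 6.08). The lowest mouse there, mouse 18, lay within the range of the other groups. Cyp2c38 per 100 of Cyp2c29 was 1.99 ± 0.408 in chronic vehicle, 5.1 ± 1.33 in chronic CORT and 1.5 ± 0.364 in chronic CORT+ENZA. Cyp2c55 per 100 of Cyp2c29 was 0.752 ± 0.195 in acute vehicle and 1.61 ± 0.413 in acute ENZA, and in the chronic arm 0.343 ± 0.0774 in vehicle, 0.0912 ± 0.0452 in CORT and 1.04 ± 0.334 in CORT+ENZA. These ratios are descriptions and were not tested. Cyp2c69, chosen here after its values were seen, went from 1.1 ± 0.721 to 65.6 ± 38.9 CPM with chronic CORT (log2 5.92 ± 0.59, adjusted p = 4.2e-06) and stood at 2.68 ± 2.11 in CORT+ENZA. It shares 0.113% of the 50-base stretches of Cyp2c37.

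**Figure D5:**
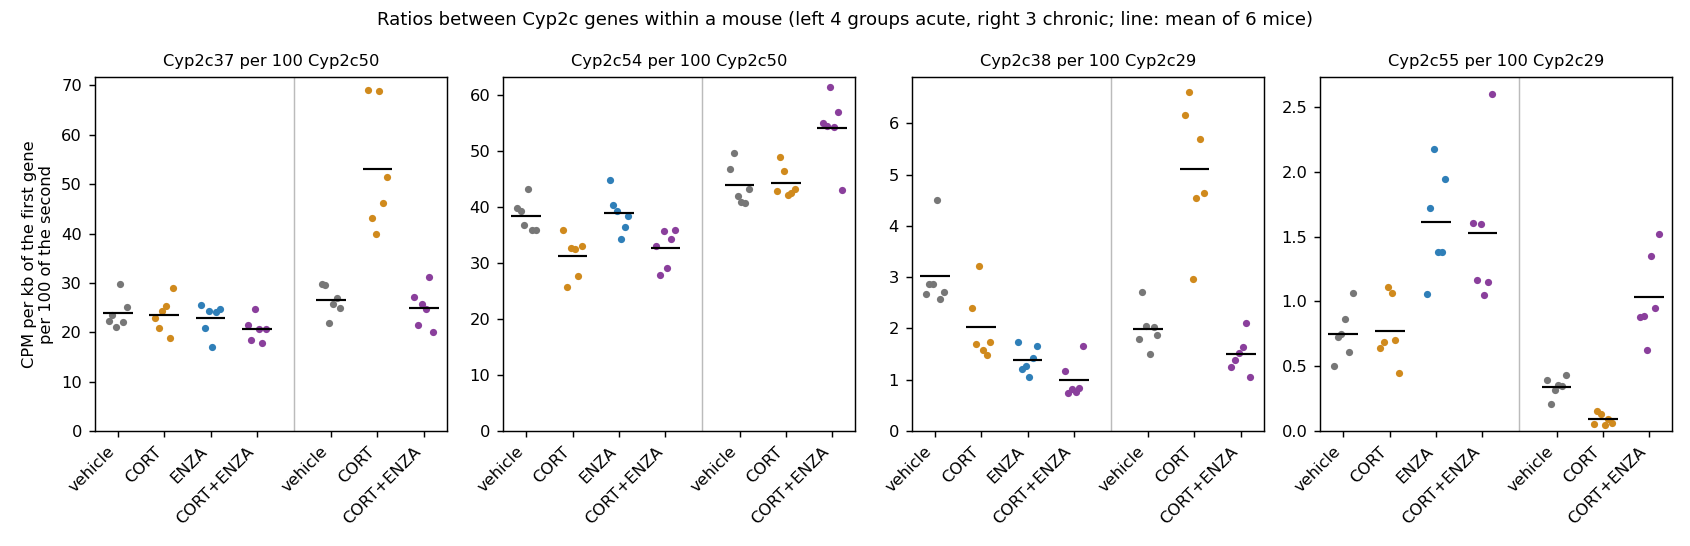
CPM per kb of one gene per 100 of another within each mouse, by group, with a line at the mean of 6 mice; the acute groups are left and the chronic groups right. Cyp2c37 per 100 Cyp2c50 is 39.9 to 69.1 in chronic CORT and at most 31.1 in all other groups.

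Across the 42 mice, deviations of log2 CPM from the group means correlated at r = 0.957 for Cyp2c50 with Cyp2c54, 0.868 for Cyp2c37 with Cyp2c54 and 0.606 for Cyp2c38 with Cyp2c39. Less alike pairs came near the last value, with 0.594 for Cyp2c37 with Cyp2c38 and 0.519 for Cyp2c38 with Cyp2c54. The nearest member to Cyp2c29 was Cyp2c38 (r = 0.47), and to Cyp2c55 it was Cyp2c29 (r = 0.34). Cyp2c29 with Cyp2c50 reached 0.17 only. The points share library depth, and some of the gene pairs share sequence, so these values describe the mice and carry no test.

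Among 8853 other genes, those with the pattern most like the mean of the 7 genes over 42 mice (log2 CPM centred on the arm) were Cyp3a59 (r = 0.929), Cyp3a11 (0.918), Ces2a (0.901), Akr1d1 (0.895), 4931406C07Rik (0.894), Gsta4 (0.884), Ces1g (0.882) and Cyp3a25 (0.876). After the group means were removed, r for the same genes was 0.384 to 0.673. Likeness over groups says how similar the group means are and was given no test.

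Of the 8 other Cyp2c genes in the tables, 6 passed the filter on low counts. By edgeR acute ENZA called 0 of the 6, with 1 at an unadjusted p under 0.05 (Cyp2c70, log2 0.35 ± 0.15, adjusted p = 0.279) and a median log2 fold change of -0.01. Added to chronic CORT, ENZA raised 2 (Cyp2c23 by 0.90 ± 0.19, adjusted p = 0.00364, and Cyp2c70 by 0.52 ± 0.16, adjusted p = 0.0362) and lowered 3. These were Cyp2c68 (-0.48 ± 0.13, adjusted p = 0.0255) and, named after their values were seen, Cyp2c40 (-3.66 ± 0.46) and Cyp2c69 (-4.60 ± 0.52). Cyp2c67 was at 0.04 ± 0.17 (adjusted p = 0.917). Chronic CORT raised 5 of the 6 and lowered 1, Cyp2c23 (-0.77 ± 0.19, adjusted p = 0.00722).

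Of the drug-sensing receptors and their partners, Nr1i2, which encodes PXR, rose with acute ENZA from 68.4 ± 4.14 to 104 ± 6.51 CPM (log2 0.60 ± 0.08, adjusted p = 3.9e-05). It was the 1 of 10 listed genes called, and again the 1 of 10 when ENZA was added to acute CORT (log2 0.43 ± 0.08, adjusted p = 0.00597). In the chronic arm added ENZA did not pass for Nr1i2 (log2 0.38 ± 0.17, adjusted p = 0.16). Nr1i3, which encodes CAR, was not called with acute ENZA (log2 -0.16 ± 0.21), with ENZA on acute CORT (0.02 ± 0.21) or with ENZA on chronic CORT (-0.13 ± 0.25). The others with acute ENZA were Ppargc1a 0.41 ± 0.13, Hnf4a -0.23 ± 0.12, Ahr 0.20 ± 0.15, Ncoa1 -0.05 ± 0.07, Rxrg 0.15 ± 0.20, Rxrb -0.07 ± 0.10, Rxra -0.09 ± 0.13 and Nfe2l2 -0.02 ± 0.11, on the log2 scale, none of them called. Hnf4a was the 1 gene of the list that fell when ENZA was added to chronic CORT (-0.31 ± 0.09, adjusted p = 0.0323).

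Of 5 hormone receptor and growth hormone signalling genes, edgeR called 0 in each of the 3 comparisons that added ENZA, with 1, 0 and 1 at an unadjusted p under 0.05 for ENZA alone, on acute CORT and on chronic CORT. Chronic CORT lowered 4 of the 5, Nr3c1, the glucocorticoid receptor (-0.27 ± 0.08), Stat5a (-0.44 ± 0.13), Stat5b (-0.43 ± 0.10) and Ghr (-0.48 ± 0.12). Nr3c2 was at -0.23 ± 0.12 and was not called there.

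Some other known targets of CAR and PXR also rose with ENZA. Of 23 measured, 11 rose and 0 fell with acute ENZA (0.845% of all genes rose), with a median log2 fold change of 1.03 (-0.0019 over all genes). When it was added to acute CORT 3 rose and 20 were not called (0.167% of all genes rose), with medians of 0.48 and -0.0025. The acute interaction test by edgeR called 0 of the 23 and 0 of all genes. The median log2 difference was -0.295 with 0 of the 23 above 0, and -0.0022 over all genes. In the chronic arm 19 rose and 0 fell (6.99% of all genes rose), with medians of 1.38 and -0.0031. Cyp3a11, a major steroid and drug oxidase, went from 3404 ± 1136 to 8377 ± 1973 CPM with acute ENZA (log2 1.30 ± 0.20, adjusted p = 8.0e-04) and by 3.24 ± 0.27 on chronic CORT. Ces2a, a carboxylesterase, rose by 1.05 ± 0.08 and 2.03 ± 0.12, Cyp3a59 by 2.19 ± 0.31 and 3.63 ± 0.22, and Gstm3, a glutathione S-transferase, by 2.63 ± 0.42 and 4.36 ± 0.38, on the log2 scale. This list, too, was chosen with earlier results known.

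Of 11 genes of electron supply and haem synthesis, which P450 enzymes need to work, 1 rose with acute ENZA. It was Por, the P450 reductase (log2 0.66 ± 0.13, adjusted p = 0.00774), which rose again on acute CORT (0.62 ± 0.13, adjusted p = 0.0329) and did not pass on chronic CORT (1.17 ± 0.41, adjusted p = 0.0749). There Alas1, the rate-limiting enzyme of haem synthesis, rose (1.75 ± 0.36, adjusted p = 0.00444). Cyb5r3 was at -0.23 ± 0.08 and Cpox at 0.22 ± 0.10 with acute ENZA, neither called. Of 11 genes that make or clear fatty acid epoxides, Ephx1, the microsomal epoxide hydrolase, was the 1 that rose with acute ENZA (log2 0.57 ± 0.10, adjusted p = 0.0022) and with ENZA on acute CORT (0.48 ± 0.10, adjusted p = 0.0317). On chronic CORT 3 of the 11 rose, among them Ephx1 (1.13 ± 0.21, adjusted p = 0.00143) and Cyp4a12b (2.14 ± 0.24, adjusted p = 1.3e-05). Cyp4f13 and Cyp4f14 were at -0.27 ± 0.11 and -0.21 ± 0.09 with acute ENZA and were not called.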

How the data were processed

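Liver mRNA of 42 mice was sequenced as 100-base read pairs on DNBseq, per the labels' protocols. The submitters' processing notes name FastQC, MultiQC, STAR 2.7.3a, HTSeq 0.12.4 and mm10, and the deposited values are the authors' raw counts per gene, 1 table per arm of 55573 gene IDs. The table's 5 summary lines, which stand for no gene, did not enter the library sizes. The pairs aligned to several places are given in the text.

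Each arm was fitted once with edgeR 4.0.16 (R 4.3.3) on TMM-scaled counts: filterByExpr (minimum count 10, total 15), robust quasi-likelihood fit, Benjamini-Hochberg adjustment over all genes tested, called at an adjusted p under 0.05. A further fit over 42 libraries gave differences between arms. CPM values are counts per megaread of the TMM-scaled library, and CPM per kb divides them by transcript length. The 95% intervals are normal approximations. Alternatives were RLE scaling, no filter or a stricter one (1 CPM in 6 libraries), DESeq2 1.42.0, limma-voom (limma 3.58.1), fewer groups, a term for sets of mice, summed paralogs and left-out mice. Members, lists and alternatives were chosen with earlier results of these data known. Named genes are the 7 members, every listed regulator, up to 4 of each other list by the smallest p in acute ENZA against vehicle, and the 8 most alike in pattern. A listed hormone receptor gene is not reported here. In data simulated for acute ENZA against vehicle (13603 genes), 104 of 108 genes changed by log2 1 and 92 of 92 changed by log2 1.5 were recovered. Of the unchanged genes 8 were called as well. Smaller changes were not simulated, so no recovery rate is known for them. No pair of mice in a group agreed within sampling noise (lowest chi-square per degree of freedom 10.6 over 105 pairs). Read counts carry counting error besides the spread between mice.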

Additional observations from a re-analysis of the deposited data

Results flagged for a closer look

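In 3 of 49 sets of 6 mice (7 genes by 7 groups), 1 mouse lay far from the others, where chance gives about 1 in 20, or 2.45. Chronic vehicle mouse 11 had 42.7 CPM of Cyp2c38, against 20.5 to 27.9 in the other 5, and 335 CPM of Cyp2c54, against 165 to 228. Chronic CORT+ENZA mouse 18 had 308 CPM of Cyp2c54, against 801 to 1038.

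Effects differed between the arms by the test of the difference itself. The log2 effect of ENZA added to CORT was larger in the chronic arm by 0.73 for Cyp2c29 and by 3.34 for Cyp2c55. For Cyp2c55 the mean in CORT was 10.7 CPM in acute and 1.32 in chronic mice, and in CORT+ENZA 49.5 and 63.1. The log2 effect of CORT was larger there by 0.62 for Cyp2c29, 2.46 for Cyp2c38 and 2.41 for Cyp2c39. Duration and extraction kit cannot be told apart in these differences.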

How the results depend on the processing

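Of 1670 alternative values for 70 results (7 genes in 10 comparisons), 1492 kept their direction and side of the threshold, 38 lost the call, 51 gained one and 89 changed sign. Summed values count here as alternatives of each gene in the sum. The sums were Cyp2c29 with Cyp2c38 and Cyp2c39, and Cyp2c37 with Cyp2c50 and Cyp2c54. Cyp2c29 made up most of the former sum, so calls gained there by Cyp2c38 and Cyp2c39 reflect mainly Cyp2c29. The sign changes fell in 15 results, of which 0 were called. For CORT on top of acute ENZA, limma-voom called 1 member against 0. For the difference between arms in added ENZA, 4 members were called under RLE scaling, the stricter filter, DESeq2, limma-voom and without mice 11 and 18, against 2, and 1 to 4 with 1 mouse left out. For the difference in CORT effects, 5 were called by DESeq2 and without mice 11 and 18, against 3, and 2 to 5 with 1 mouse left out. The cause was not tested.

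Counts of genes called over the whole table also moved. For acute ENZA they were 180 with edgeR, 90 without a filter, 388 with DESeq2, 308 with limma-voom, 94 with only the groups compared, and 77 to 156 with 1 mouse left out. For ENZA on acute CORT they were 24, with 59 by DESeq2, 50 by limma-voom, 39 without mice L19A and L36A, and 14 to 22 with 1 mouse left out. For acute CORT they were 222, with 432 by DESeq2, 356 by limma-voom, 96 with only the groups compared and 135 to 323 with 1 mouse left out. For CORT on ENZA they were 248, with 156 without a filter, 461 by DESeq2, 634 by limma-voom and 118 to 253 with 1 mouse left out. For chronic CORT+ENZA against vehicle, limma-voom called 3856 against 2434. The differences between arms gave 179 for added ENZA (319 by DESeq2, 460 by limma-voom) and 873 for CORT (509 without a filter, 1683 by limma-voom, 1373 without mice 11 and 18).

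Log2 values that changed sign were as follows. For acute CORT, Cyp2c29 was at 0.0038 without a filter, 0.012 with the term for sets and -0.091 to 0.055 with 1 mouse left out. Cyp2c37 was at 0.097 without L19A and L36A and -0.098 to 0.097 with 1 left out, and Cyp2c39 at -0.30 to 0.065. Cyp2c50 was at -0.00032 with the stricter filter, -0.019 with limma-voom, -0.0019 with sets, -0.065 summed and -0.079 to 0.052 with 1 left out. Cyp2c55 was at -0.015 with limma-voom, -0.0032 without L19A and L36A and -0.10 to 0.24 with 1 left out. For CORT on ENZA, Cyp2c50 was at -0.024 with limma-voom, -0.0070 without L19A and L36A, -0.050 summed and -0.059 to 0.12 with 1 left out.

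For the interaction, Cyp2c37 was at 0.015 summed and -0.23 to 0.015 with 1 mouse left out, and Cyp2c38 at -0.28 to 0.054. Cyp2c50 was at -0.0048 with limma-voom, -0.043 without L19A and L36A and -0.062 to 0.12 with 1 left out, and Cyp2c54 at -0.038, -0.070 and -0.017 to 0.17. For chronic CORT, Cyp2c50 was at 0.087 without mice 11 and 18, 0.16 summed and -0.13 to 0.081 with 1 left out, and Cyp2c54 at 0.0088 without a filter, 0.15 without 11 and 18, 0.16 summed and -0.16 to 0.15 with 1 left out. For the difference between arms in added ENZA, Cyp2c38 was at -0.13 to 0.21 with 1 left out. Cyp2c39 was at 0.68 in its sum with Cyp2c29 and Cyp2c38, which was mostly Cyp2c29. For that in CORT, Cyp2c50 was at 0.12 without 11 and 18, 0.26 summed and -0.11 to 0.12 with 1 left out. Low counts (13 to 41 pairs per chronic CORT library for Cyp2c55) and shared sequence (Cyp2c37, Cyp2c50, Cyp2c54) limit these values. The labels repeat no replicate number between groups. A term for sets of consecutive acute mouse numbers, with 1 mouse of each group per set, was fitted instead, and the 1 call it changed was that of Cyp2c50 for ENZA on CORT (adjusted p = 0.0789).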
